A study of Mus musculus with 12 samples.

Results

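Long intergenic non-coding RNA (lincRNA) genes expressed in Ba/F3 cells are described here. Ba/F3 is a mouse cell line labelled as pro-B cells, and it needs interleukin-3 (IL-3) to survive. Genes were chosen by their own measured level. They are those of biotype lincRNA in GENCODE release M21 on mm10 with a CPM (the count scaled to a common library total) of at least 1 in all 4 lines of at least 1 of 3 groups, with Neat1 and Ptgs2os2 left out. The rule kept 271 of the 5617 lincRNA genes in a table of 55471 genes. RNA had been sequenced from 12 lines, with 4 biologically independent lines in each group. In the MSCV group the genotype is the empty vector, and these lines were kept in 0.5 ng/ml murine IL-3. The other groups express BCR-ABL1 or SFPQ-ABL1, oncogenic fusions of the kinase ABL1, and were kept without the cytokine. All 12 lines are Ba/F3 cells labelled untreated. A difference between a fusion and MSCV is also a difference between growth without and with IL-3, and these cannot be told apart. The 2 fusion groups do not differ in that respect.

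LincRNAs are transcribed by RNA polymerase II from DNA between protein-coding genes, and most are capped, spliced and polyadenylated like messenger RNA while coding for no known protein. Some act in the nucleus as scaffolds or as local regulators of a neighbouring gene, some act in the cytoplasm by binding proteins, and some matter mainly as carriers of small nucleolar RNAs or microRNAs in their introns or exons. For most of them no function is known, and their levels are as a rule low and specific to a cell type. In blood cells a few have known roles in the survival and differentiation of lymphoid and myeloid cells.

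Total counts per library ran from 59355018 to 80616227, so that 1 CPM stood for 59.4 to 80.6 counts. Levels below are CPM scaled by TMM factors, which are set by edgeR to make libraries comparable. A gene is called where the two-sided quasi-likelihood test of edgeR, fitted to all 17197 genes that passed its filter on low counts and all 12 libraries, gave a p under 0.05 after Benjamini-Hochberg adjustment. Unless another tool is named, adjusted p below means this one. As a check of the labels, the Abl1 exon with the largest gap between MSCV and the fusions, chosen after its values were seen, stood at 0.0454 to 0.0529 CPM in the MSCV lines, at 9.23 to 20.8 CPM in the BCR-ABL1 lines and at 4.36 to 26.8 CPM in the SFPQ-ABL1 lines. It does not tell the fusions apart, and the groups overlapped in other exons, such as the last, at 2.91 to 3.94, 2.57 to 3.73 and 2.86 to 3.62 CPM. The label of pro-B cells was only partly borne out, since 2 of 13 early B cell genes had a mean of 1 CPM or more and 10 were below 0.1 CPM, among them Pax5, Ebf1, Rag1 and Il7r. The summed level of 9 granulocyte and monocyte markers was 444 to 1123 CPM in MSCV, 215 to 382 CPM in BCR-ABL1 and 548 to 816 CPM in SFPQ-ABL1. That of 7 mast cell and basophil markers was 1357 to 1646, 1341 to 1585 and 808 to 1369 CPM. That of the early B genes was 130 to 152, 49.1 to 71.9 and 85.2 to 98.7 CPM, and that of 7 T and NK cell markers was 6.49 to 13.1, 15.5 to 31.3 and 2.76 to 11.6 CPM. That of 6 erythroid and megakaryocyte markers, all with a mean of 1 CPM or more, was 1275 to 2050, 900 to 1749 and 877 to 1986 CPM. The early B sums did not overlap between any groups. The granulocyte and monocyte sums of BCR-ABL1 lay below those of the other groups, and its T and NK sums above them. The remaining sums overlapped between groups. The part of these markers in the differences below was not tested.

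The expressed lincRNA genes held only 0.469 to 0.588% of the counts of a library. Their median mean level was 4.61 CPM, against 43.7 CPM in the 9920 protein-coding genes at 1 CPM or more in every line. Only 72 of the 271 had a mean of 10 CPM or more, and 9 had 100 CPM or more. The 5 most abundant took up 31.3 to 50.3% of the lincRNA counts of a library. Most have no name beyond a clone or predicted gene number, with 146 Gm names, 82 Rik names and 11 clone names among them. The level of 1 CPM set the edge of the group. There were 18 genes with a highest group minimum between 1 and 1.2 CPM, such as Gm47467 at 1.01 and Gm13371 and Gm35507 at 1.02 CPM, and 33 lincRNA genes just outside at 0.8 to 1 CPM, such as Gm15892 at 0.999 and Gm13203 at 0.995 CPM.

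All 3 groups met the level for 202 of the 271 genes. Another 21 met it in MSCV and SFPQ-ABL1, 12 in MSCV and BCR-ABL1, and 3 in the fusions only. A further 12 met it in MSCV only, 13 in BCR-ABL1 only and 8 in SFPQ-ABL1 only. Test values are read below only for the 202, because a gene kept through 1 or 2 groups was chosen for being high there. Choosing the 202 also leaves out genes that fell below the level in a group. The 202 varied more between lines than protein-coding genes did. Their median coefficient of variation was 18.1% in MSCV, 17% in BCR-ABL1 and 16.6% in SFPQ-ABL1. It was 12.3, 10.4 and 10.6% in the protein-coding genes at 1 CPM or more in every line. In those with a mean between the lower and upper quartile of the means of the 202 it was 15.2, 14.0 and 13.8%. The 202 themselves were not limited to that range, so levels were not matched.

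In gene structure the 271 differed from the 5344 lincRNA genes below the level. The choice was made by CPM, which is not divided by exon length, so a longer gene reaches the level more easily. The difference in exon length is therefore partly set by the choice. Their median summed exon length was 1906 bases against 968, and 13.7% had a single exon against 5.20%. A start within 1 kb of the start of a protein-coding gene on the opposite strand, the layout of a divergent promoter, was found for 47 of them, or 17.3%, against 4.17%. In all, 47.6% lay within 5 kb of a protein-coding gene or overlapped one, against 17.8%, and the median distance was 5919 bases against 52167. Only 2 of the expressed genes, Jpx and Ftx, lie on the X chromosome. In 69 genes some exon bases were shared with another gene, in 6 most were, and in 20 the other gene was protein-coding. The sources used here do not give the use of strand in counting, so reads of such overlapping genes cannot be told apart.

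Per kilobase of exon, Gm10076, 4930519L02Rik, Gm6093, Gm42047 and the short Bc1 were among the most abundant, an RNA polymerase III transcript known as a repressor of translation in neurons. Gm42047 had the highest level per library of all 271, with a mean of 800 ± 251 CPM in MSCV, 1056 ± 80.9 CPM in BCR-ABL1 and 689 ± 172 CPM in SFPQ-ABL1 (SD, n = 4). Gm10076, at 179 ± 36.5, 174 ± 17.5 and 152 ± 50.8 CPM (SD, n = 4), was not called in any comparison. Gm26917, at 201 ± 24.2, 188 ± 71.5 and 233 ± 18.1 CPM (SD, n = 4), was not called either. Gm6093 rose 1.60-fold with BCR-ABL1. Its level was 579, 452, 358 and 336 CPM in MSCV lines 1 to 4, 697, 712, 602 and 751 CPM in the BCR-ABL1 lines and 390, 409, 482 and 534 CPM in the SFPQ-ABL1 lines. Every BCR-ABL1 line lay above every other line, and the log2 fold change was 0.68 ± 0.16 (SE) against MSCV (adjusted p = 0.00647).

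With BCR-ABL1, lincRNAs were called lower more often than higher. Of the 202, 74 were called against MSCV, 24 higher and 50 lower. That share, 36.6%, was close to the background, since of all 11650 tested genes at 1 CPM or more in every line 38.1% were called (18.8% higher and 19.2% lower), and of all tested genes 32.1%. The direction differed, with 11.9% of the lincRNAs higher and 24.8% lower. Their median log2 fold change was -0.15. Of 124 antisense genes at the same level, 8 were called higher and 35 lower. Of 9920 protein-coding genes 19.8% were called higher and 20.6% lower. Size differed as well. Changes of at least 2-fold were called in 27 of the 202 lincRNAs, 690 of the 11650 background genes and 599 of the 9920 protein-coding genes. The levels of these sets were not matched. The lines of BCR-ABL1 and MSCV did not overlap in 74 of the 202 lincRNAs (36.6%, against 37.4% of the background genes and 31.6% of all tested genes), and 64 genes were both called and free of overlap.

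**Figure D1:**
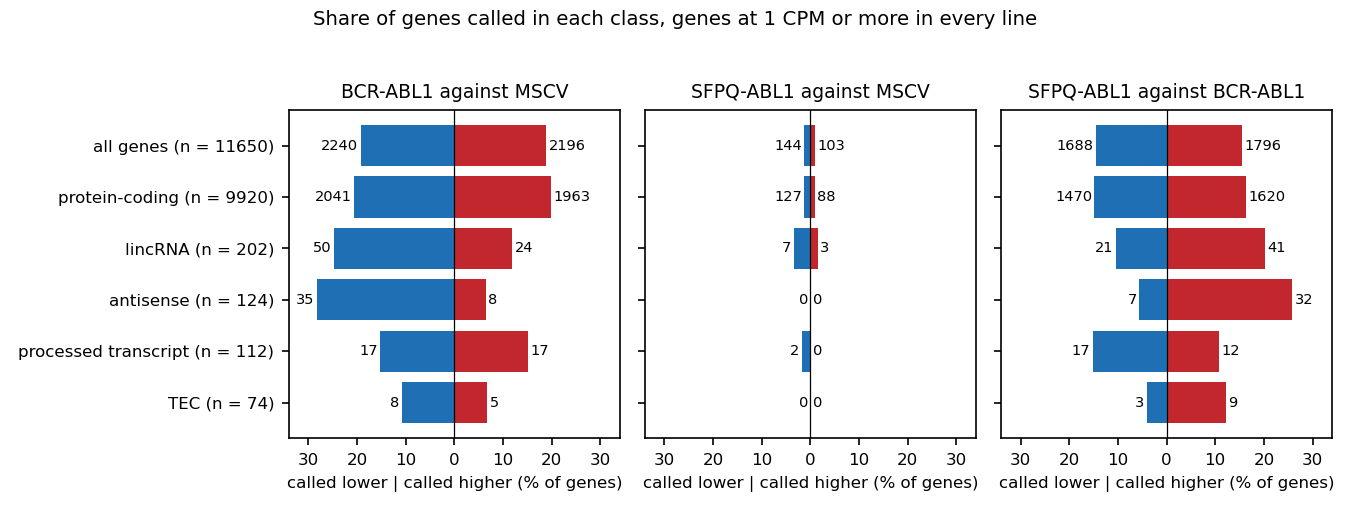
Share of genes called lower (blue, to the left) and higher (red, to the right), in percent of the genes of each class at 1 CPM or more in every line, with the number of genes beside each bar. In the comparison of BCR-ABL1 with MSCV, 50 lincRNAs were called lower and 24 higher, while all genes were split nearly evenly.

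Against MSCV, far fewer lincRNAs moved with SFPQ-ABL1. There 10 of the 202 were called, 3 higher and 7 lower, or 4.95%, against 2.12% of the background genes (0.884% higher, 1.24% lower) and 1.79% of all tested genes (0.814% higher, 0.977% lower). The lines did not overlap in 28 of the 202 (13.9%, against 13.1% of the background). The count rests on single libraries. It was 0 without MSCV line 3, 1 without MSCV line 2 or SFPQ-ABL1 line 4, 2 without MSCV line 4, 3 without SFPQ-ABL1 line 1, 4 without SFPQ-ABL1 line 3, 6 without BCR-ABL1 line 3 and 18 without SFPQ-ABL1 line 2. With the replicate number of the lines as a block, 18 were called (6 higher, 12 lower), among them all 10, and 726 genes in all. Without MSCV line 3, 45 of the 202 still had an unadjusted p under 0.05 by edgeR, against 50 with all lines, and with all lines DESeq2 called 30 and limma-voom 9. Between the fusions, 62 of the 202 were called, 41 higher in SFPQ-ABL1 and 21 lower, or 30.7% against 29.9% of the background (15.4% higher, 14.5% lower) and 26% of all tested genes. Of the 202, 26 were called with a difference of at least 2-fold, against 506 of the 11650 background genes, with levels not matched. The lines did not overlap in 65 of the 202 (32.2% of them and 32.2% of the background). The 3 comparisons share their groups, so a gene that stands apart in BCR-ABL1 enters 2 of them.

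**Figure D2:**
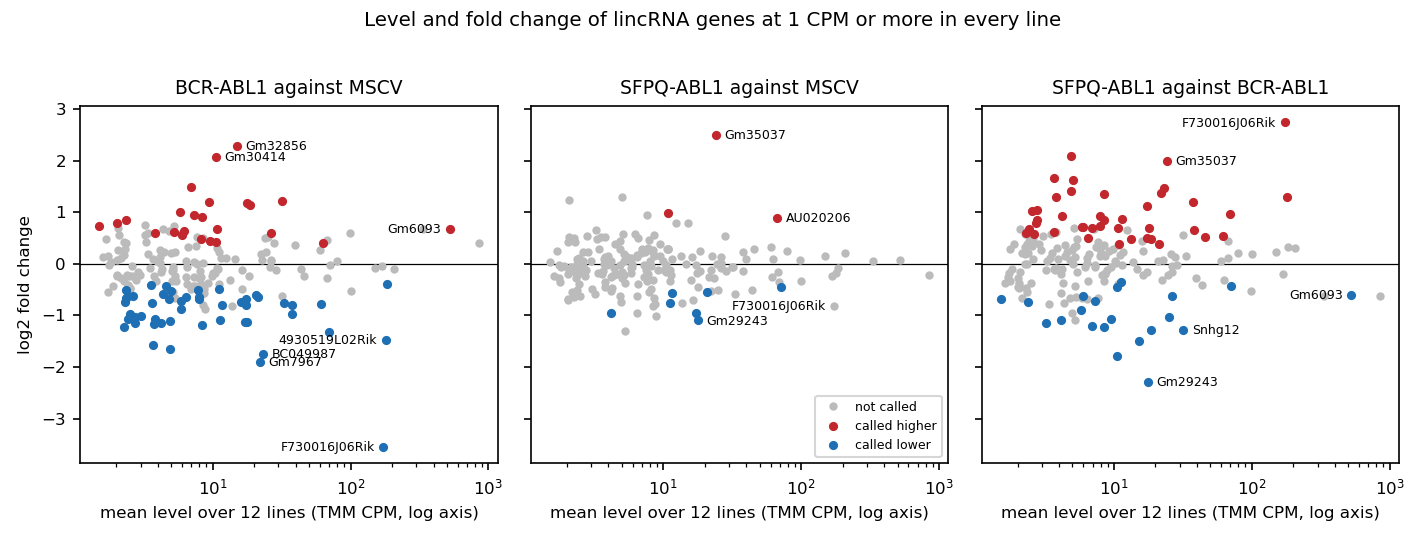
Mean level over the 12 lines (x, CPM on a log axis) and log2 fold change (y) of the 202 lincRNA genes at 1 CPM or more in every line, 1 panel per comparison, with called genes in red (higher) and blue (lower). F730016J06Rik is the lowest point in the comparison of BCR-ABL1 with MSCV, at -3.55, and Gm35037 the highest in that of SFPQ-ABL1 with MSCV, at 2.50.

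F730016J06Rik, a gene of unknown function at chr2:28095477-28127731, fell most with BCR-ABL1. Its level was 116, 159, 483 and 499 CPM in MSCV lines 1 to 4, 19.1, 14.7, 20.5 and 52.8 CPM in the BCR-ABL1 lines and 118, 71.4, 262 and 265 CPM in the SFPQ-ABL1 lines. All BCR-ABL1 lines lay below all others, and lines 3 and 4 were the high ones of each group outside BCR-ABL1. The fold change against MSCV was 11.7-fold (log2 -3.55 ± 0.61 SE, adjusted p = 0.000848), and SFPQ-ABL1 stood 6.69-fold above BCR-ABL1 (adjusted p = 0.00465). Against MSCV, the SFPQ-ABL1 lines overlapped (log2 -0.81, adjusted p = 0.458). The granulocyte marker sum given above was also lower in BCR-ABL1 than in either other group. The nearest coding gene, Fcnb, lies 10592 bases away and stood below 1 CPM. Gm13371, at chr2:28092032-28093514 just before F730016J06Rik, reached the level in MSCV only and is given without a test. It stood at 1.02, 2.12, 6.04 and 7.75 CPM in MSCV, at 0.243, 0.0822, 0.455 and 0.774 CPM in BCR-ABL1 and at 1.79, 0.883, 5.19 and 5.61 CPM in SFPQ-ABL1, again with lines 3 and 4 high.

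4930519L02Rik, another abundant gene without a known role, fell 2.79-fold with BCR-ABL1. It stood at 249, 132, 303 and 279 CPM in MSCV, at 92.8, 57.3, 43.0 and 153 CPM in BCR-ABL1 and at 205, 175, 252 and 216 CPM in SFPQ-ABL1. BCR-ABL1 line 4 overlapped the lowest MSCV line, and the log2 fold change was -1.48 ± 0.34 (SE, adjusted p = 0.00559). Gm7967 fell 3.72-fold, from 26.0 to 39.0 CPM in the MSCV lines to 5.66 to 12.5 CPM in the BCR-ABL1 lines (adjusted p = 0.000228). Gm28187 fell 2.50-fold, from 87.2 to 102 CPM to 22.7 to 55.6 CPM (adjusted p = 0.00159). In each of these the SFPQ-ABL1 lines lay nearer to MSCV, and none of the 3 was called in that comparison. Genes of lower level fell as well. They were A630001O12Rik with a 3.14-fold fall, Gm20342 2.98-fold, 5830454E08Rik 2.35-fold, C230057M02Rik 2.29-fold, AI480526 2.25-fold and 5033430I15Rik 2.17-fold, with adjusted p from 0.000243 to 0.00345 and no overlap between the lines of BCR-ABL1 and MSCV. With SFPQ-ABL1 against MSCV, C230057M02Rik had a log2 fold change of -0.82 and 5830454E08Rik of -0.65. DESeq2 called both lower (adjusted p = 0.0184 and 0.0286), and edgeR called neither (0.1 and 0.112). Neither was called between the fusions (adjusted p = 0.279 and 0.0502), while A630001O12Rik, Gm20342, AI480526 and 5033430I15Rik were called higher in SFPQ-ABL1 there. AI480526 shares 66.6% of its exon bases with 4932422M17Rik and Gm38102, so its reads may be theirs.

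BC049987 fell together with the gene it faces. It stood at 22.8, 23.6, 43.5 and 41.2 CPM in MSCV, at 9.47, 10.9, 7.86 and 10.8 CPM in BCR-ABL1 and at 21.6, 22.6, 33.0 and 30.5 CPM in SFPQ-ABL1. The fall was 3.35-fold (log2 -1.74 ± 0.23 SE, adjusted p = 0.000152), with no overlap. Treh, the trehalase gene 995 bases away on the opposite strand, fell 2.57-fold, from 22.7 ± 5.92 to 8.84 ± 3.55 CPM (SD, n = 4, adjusted p = 0.00357). In SFPQ-ABL1 Treh stood at 23.3 ± 7.73 CPM. The promoter windows of BC049987 and of the genes with the largest fall and the largest rise are shown because these genes mark the ends of the response to BCR-ABL1. Each window runs from 250 bases before to 50 after the start in RefSeq (GRCm38.p6), 5′ to 3′ on the gene's strand, with capitals for a CCAAT box, the site bound by NF-Y, as CCAAT or its complement ATTGG.
F730016J06Rik, chr2:28095095-28095394 (+ strand): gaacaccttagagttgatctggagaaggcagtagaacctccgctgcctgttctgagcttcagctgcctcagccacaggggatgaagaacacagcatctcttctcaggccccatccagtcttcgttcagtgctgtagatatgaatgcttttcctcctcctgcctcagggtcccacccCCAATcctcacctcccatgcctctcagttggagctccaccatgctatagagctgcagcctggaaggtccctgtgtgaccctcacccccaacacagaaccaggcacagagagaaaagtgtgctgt
BC049987, chr9:44672211-44672510 (- strand): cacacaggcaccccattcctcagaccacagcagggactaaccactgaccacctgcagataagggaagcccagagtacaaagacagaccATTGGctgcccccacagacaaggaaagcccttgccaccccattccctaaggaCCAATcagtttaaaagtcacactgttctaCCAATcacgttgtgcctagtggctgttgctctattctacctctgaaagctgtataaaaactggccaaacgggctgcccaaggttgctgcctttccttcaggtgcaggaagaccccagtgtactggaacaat
Gm32856, chr8:129263380-129263679 (+ strand): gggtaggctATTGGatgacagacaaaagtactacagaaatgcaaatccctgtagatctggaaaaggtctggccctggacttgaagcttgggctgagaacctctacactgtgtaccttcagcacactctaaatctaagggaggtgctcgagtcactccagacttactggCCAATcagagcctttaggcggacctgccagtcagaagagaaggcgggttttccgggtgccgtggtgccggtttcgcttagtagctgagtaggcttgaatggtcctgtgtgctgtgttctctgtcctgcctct

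The window of BC049987 holds 3 CCAAT boxes, that of Gm32856 has 2 and that of F730016J06Rik has 1. Such a box is common, found in 37.9% of all 27025 RefSeq windows and in 40.9% of the 132 windows that matched an expressed lincRNA gene by symbol. The ETS core CCGGAAG was found in 18.9% of the lincRNA windows against 9.12% of all windows, and the E-box CACGTG bound by MYC in 8.33% against 7.24%. The STAT5-type motif TTCNNNGAA was found in 6.06% against 8.47%, the NRF1-type motif in 6.82% against 6.43% and the TATA box TATAAA in 12.9% against 14.2%. Each was searched on both strands, and a match describes the letters only.

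Gm32856 rose most with BCR-ABL1. This gene of unknown function, at chr8:129263641-129282844, stood at 6.90, 5.23, 5.83 and 5.94 CPM in MSCV, at 20.4, 34, 29.0 and 32.8 CPM in BCR-ABL1 and at 10.8, 6.58, 10.6 and 13.1 CPM in SFPQ-ABL1. The BCR-ABL1 lines lay above all others, 4.86-fold above MSCV (log2 2.28 ± 0.21 SE, adjusted p = 1.88e-05). SFPQ-ABL1 was 2.83-fold below BCR-ABL1 (adjusted p = 0.000346) and was not called against MSCV (log2 0.78, adjusted p = 0.0686). Without SFPQ-ABL1 line 2 that adjusted p was 0.0153. Gm30414 rose 4.22-fold. Its levels were 3.99 to 5.66 CPM in MSCV, 14.9 to 26.5 CPM in BCR-ABL1 and 3.95 to 8.5 CPM in SFPQ-ABL1 (adjusted p = 6.56e-05). 5430416N02Rik rose 2.81-fold, from 3.22 to 5.37 CPM in MSCV to 9.78 to 13.3 CPM in BCR-ABL1 (adjusted p = 0.000108). Gm40040 rose 1.99-fold (adjusted p = 0.000424). Gm28901 rose 2.31-fold (adjusted p = 0.00536), with 25.7 CPM in BCR-ABL1 line 3 and 10.1 to 11.9 CPM in the others, but 85.7% of its exon bases are shared with the pseudogene Gm6430.

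Gm29243 moved in opposite directions in the 2 fusions. It stood at 15.8, 17.3, 14.6 and 9.04 CPM in MSCV, at 36.7, 25.7, 32.8 and 34 CPM in BCR-ABL1 and at 9.29, 4.75, 6.29 and 6.23 CPM in SFPQ-ABL1. It rose 2.27-fold with BCR-ABL1 (adjusted p = 0.00139) and fell 2.14-fold with SFPQ-ABL1 (adjusted p = 0.0315), where MSCV line 4 and SFPQ-ABL1 line 1 overlapped. The call against MSCV in SFPQ-ABL1 was lost without any of MSCV lines 1 to 3 or SFPQ-ABL1 lines 3 and 4, with adjusted p of 0.0515 to 0.0863 in the settings that lost it. Between the fusions the difference was 4.86-fold (log2 -2.28 ± 0.23 SE, adjusted p = 9.2e-05), with no overlap.

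**Figure D3:**
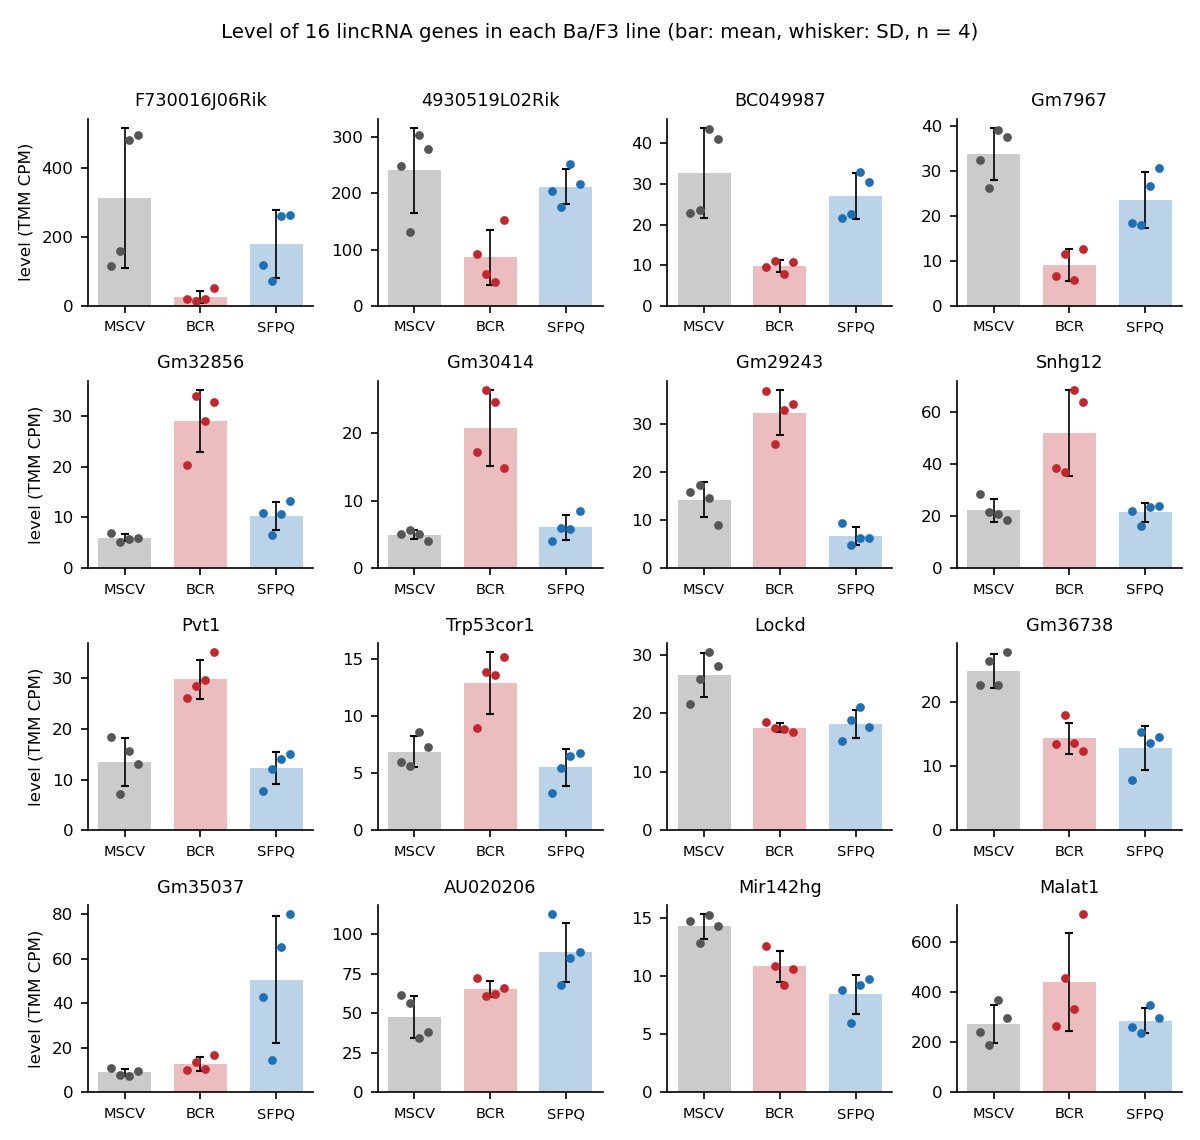
Level (CPM, linear axis from 0) of 16 lincRNA genes in each line of the MSCV (grey), BCR-ABL1 (red) and SFPQ-ABL1 (blue) groups, with the mean as a bar, the SD as a whisker and each of the 4 lines as a point. F730016J06Rik, 4930519L02Rik, BC049987 and Gm7967 have their lowest mean in BCR-ABL1, Gm32856, Gm30414, Snhg12, Pvt1 and Trp53cor1 their highest, and Lockd and Gm36738 are low in both fusions.

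Of 15 tested hosts of small nucleolar RNAs (snoRNAs), 10 rose with BCR-ABL1, while Gas5, Snhg8, Snhg14, Snhg20 and Dancr were not called. These genes carry in their introns the snoRNAs that guide chemical modification of ribosomal RNA, and several have a start rich in pyrimidines that links their translation to growth signals. The 15 are those tested of 22 listed hosts of any biotype, and 0 were called lower with BCR-ABL1 against MSCV (background 15.8% higher and 16.3% lower among all tested genes), with a median log2 fold change of 0.77 against -0.01 for all tested genes. None of the 15 was called with SFPQ-ABL1 against MSCV by edgeR (median -0.02), where 1 had an unadjusted p under 0.05 and DESeq2 and limma-voom each called 0. Between the fusions 11 were lower in SFPQ-ABL1 (background 12.8% lower among all tested genes). Only 4 of the 15 are lincRNAs by biotype, Snhg12, Snhg6, Epb41l4aos and Snhg20. Among hosts of other biotypes Snhg5 rose from 56.4 to 164 CPM and Snhg1 from 61.0 to 175 CPM.

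Snhg12, at chr4:132308623-132311024, had the largest rise of the 4. Its level was 28.6, 21.5, 20.7 and 18.3 CPM in MSCV, 38.6, 37.2, 68.6 and 64.2 CPM in BCR-ABL1 and 22.1, 16.2, 23.4 and 23.9 CPM in SFPQ-ABL1. The BCR-ABL1 lines were the highest 4, with lines 3 and 4 well above lines 1 and 2, and the rise was 2.34-fold (log2 1.23 ± 0.22 SE, adjusted p = 0.00102). Snora16a, Snora44, Snora61 and Snord99 lie within annotated exons of this gene. Trnau1ap, 739 bases away on the opposite strand, moved the other way (log2 -0.41, adjusted p = 0.0454). Snhg6 rose 1.5-fold, from 20.9 to 27.0 CPM in MSCV to 29.3 to 39.8 CPM in BCR-ABL1 (adjusted p = 0.00277). Epb41l4aos rose 1.47-fold (adjusted p = 0.0247), and this call was lost when BCR-ABL1 line 3 or either of MSCV lines 2 and 4 was left out, and without the low-count filter, with adjusted p up to 0.0918. Snhg20 stood at 10.9 ± 0.765, 9.55 ± 2.03 and 9.97 ± 1.07 CPM in MSCV, BCR-ABL1 and SFPQ-ABL1 (SD, n = 4) and was not called (log2 -0.18, adjusted p = 0.392). The promoter window of Snhg12 is shown for its start, with the first 10 transcribed bases in RefSeq in capitals. That start lies 55 bases after the GENCODE start of the gene.
Snhg12, chr4:132308428-132308727 (+ strand): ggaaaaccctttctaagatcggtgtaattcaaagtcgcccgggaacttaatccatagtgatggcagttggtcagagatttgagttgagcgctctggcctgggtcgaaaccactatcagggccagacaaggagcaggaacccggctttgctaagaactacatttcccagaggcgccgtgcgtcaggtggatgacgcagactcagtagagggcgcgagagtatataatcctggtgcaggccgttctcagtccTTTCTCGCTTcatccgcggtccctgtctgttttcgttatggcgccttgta

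Of those 10 bases, 9 are C or T. At least 9 of the first 10 bases were C or T in 2 of 17 snoRNA host windows, in 7.58% of the 132 lincRNA windows and in 2.79% of all windows.

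Pvt1, next to Myc, rose with BCR-ABL1. This gene, named after plasmacytoma translocations and amplified with Myc in tumours, stood at 18.4, 7.21, 15.6 and 13.0 CPM in MSCV, at 26.1, 28.4, 29.7 and 35.2 CPM in BCR-ABL1 and at 7.79, 12.2, 14.2 and 15.0 CPM in SFPQ-ABL1. The BCR-ABL1 lines lay above all others, and the rise was 2.20-fold (log2 1.14 ± 0.26 SE, adjusted p = 0.00448). Myc itself, 47612 bases away, stood at 343 ± 80.8 CPM in MSCV and 257 ± 26.8 CPM in BCR-ABL1 (SD, n = 4) and was not called (log2 -0.41, adjusted p = 0.0661).

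Trp53cor1, known as lincRNA-p21 and as a target of p53 beside Cdkn1a, rose with its neighbour. It stood at 5.95, 5.61, 8.58 and 7.29 CPM in MSCV, at 8.96, 13.8, 13.6 and 15.2 CPM in BCR-ABL1 and at 3.24, 5.44, 6.53 and 6.78 CPM in SFPQ-ABL1. No BCR-ABL1 line overlapped another group, and the rise was 1.88-fold (adjusted p = 0.0100). Cdkn1a, the cell cycle inhibitor gene 11797 bases away, rose 2.34-fold, from 218 ± 57.4 to 511 ± 94.4 CPM (SD, n = 4, adjusted p = 0.00147). Between the fusions both were lower in SFPQ-ABL1, Trp53cor1 2.34-fold (adjusted p = 0.0026) and Cdkn1a 2.67-fold (adjusted p = 0.000975). Of the exon bases of Trp53cor1, 44.1% are shared with other genes, among them AC167363.1, which was 2.22-fold lower in SFPQ-ABL1 than in BCR-ABL1 (adjusted p = 0.00202). Of the 3 tested genes on the p53 and MYC list, Pvt1 and Trp53cor1 rose with BCR-ABL1 against MSCV. Both were lower in SFPQ-ABL1 than in BCR-ABL1. Of all tested genes 15.8% were called higher in the first comparison and 12.8% lower in the second. Lncpint, the remaining gene of the 3 and below the level of 1 CPM, was called in neither. None of the 3 was called with SFPQ-ABL1 against MSCV by edgeR. The count at an unadjusted p under 0.05 and those of DESeq2 and limma-voom were also 0 there.

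Lockd, transcribed downstream of the cell cycle inhibitor gene Cdkn1b, was lower in both fusions. It stood at 21.6, 26.0, 30.5 and 28.1 CPM in MSCV, at 18.6, 17.5, 17.3 and 16.8 CPM in BCR-ABL1 and at 15.3, 18.9, 21 and 17.6 CPM in SFPQ-ABL1. Every MSCV line lay above every line of the fusions. The fall was 1.51-fold with BCR-ABL1 (adjusted p = 0.00249) and 1.46-fold with SFPQ-ABL1 (adjusted p = 0.0433), and the latter call was lost in 11 of the other settings, among them leaving out any of MSCV lines 2 to 4, any BCR-ABL1 line or line 1 or 4 of SFPQ-ABL1, with adjusted p up to 0.129. Cdkn1b, 3579 bases away on the same strand, fell 1.54-fold with BCR-ABL1, from 120 ± 29.5 to 78.2 ± 10.3 CPM (SD, n = 4, adjusted p = 0.0127). Gm14005, the locus of Morrbid, which is known to repress the pro-death gene Bcl2l11 in short-lived myeloid cells, rose 1.35-fold with BCR-ABL1, from 8.54 to 10.4 CPM in MSCV to 11.8 to 13.5 CPM (adjusted p = 0.0161, and 0.0615 without the low-count filter). Bcl2l11, 15772 bases away, stood at 25.9 ± 7.44 CPM in MSCV and 17.4 ± 4.12 CPM in BCR-ABL1 (SD, n = 4, log2 -0.58, adjusted p = 0.0565).

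Gm36738 was also lower in both fusions. Its levels were 22.7, 26.4, 22.7 and 27.9 CPM in MSCV, 13.6, 18, 13.7 and 12.4 CPM in BCR-ABL1 and 7.85, 15.4, 13.6 and 14.6 CPM in SFPQ-ABL1. Every MSCV line lay above every other line, and the fall was 1.73-fold (adjusted p = 0.00635) and 1.94-fold (adjusted p = 0.0303). Rac2, a GTPase gene of blood cells 1628 bases away on the same strand, fell 1.73-fold with BCR-ABL1, from 656 ± 90.1 to 379 ± 37.9 CPM (SD, n = 4, adjusted p = 0.000504), and stood at 515 ± 68.6 CPM in SFPQ-ABL1 (adjusted p = 0.157). Gm20300 fell 1.74-fold with BCR-ABL1 (adjusted p = 0.000668) and 1.48-fold with SFPQ-ABL1 (adjusted p = 0.0488), the latter call being lost in 14 other settings with adjusted p up to 0.132, among them leaving out any single line but line 1 of BCR-ABL1 or line 2 of SFPQ-ABL1.

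Gm35037 rose most with SFPQ-ABL1. It stood at 10.9, 7.84, 7.43 and 9.73 CPM in MSCV, at 10.1, 13.5, 10.4 and 16.8 CPM in BCR-ABL1 and at 42.9, 14.5, 65.4 and 80.1 CPM in SFPQ-ABL1. SFPQ-ABL1 line 2 lay far below the other 3 lines of its group and within the BCR-ABL1 range. The rise against MSCV was 5.65-fold (log2 2.50 ± 0.40 SE, adjusted p = 0.0123), and 4.0-fold against BCR-ABL1 (adjusted p = 0.00265). Without MSCV line 3 the adjusted p against MSCV was 0.0520. AU020206 rose 1.86-fold with SFPQ-ABL1, from 34.6 to 61.4 CPM in MSCV to 67.7 to 113 CPM (adjusted p = 0.0351), a call lost in 8 other settings with adjusted p up to 0.102, among them leaving out any of MSCV lines 2 to 4, line 3 of BCR-ABL1 or line 1, 3 or 4 of SFPQ-ABL1. Gm44751, 590 bases from Ctsc, the gene of the protease cathepsin C, also rose, 1.99-fold (adjusted p = 0.0432), with overlap between the lines. The call of Gm44751 was lost in 12 other settings, with adjusted p up to 0.124, among them leaving out any single line but MSCV line 1 or SFPQ-ABL1 line 2. Ctsc rose as well (log2 0.89, adjusted p = 0.035).

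The falls with SFPQ-ABL1 were below 2-fold except for that of Gm29243. The mast cell and basophil marker sum given above was also lower in SFPQ-ABL1, with overlap with MSCV, and its part was not tested. D730003I15Rik stood at 3.61 to 5.87 CPM in MSCV, 4.26 to 5.86 CPM in BCR-ABL1 and 1.96 to 2.89 CPM in SFPQ-ABL1, a fall of 1.95-fold (adjusted p = 0.0303). Gm47381 stood at 73.9 to 83.5, 69.6 to 86.1 and 52.0 to 64.0 CPM, a fall of 1.36-fold (adjusted p = 0.0303). Both lay below every line of the other groups in SFPQ-ABL1 and were called against BCR-ABL1 too (adjusted p = 0.00152 and 0.00418). The calls of D730003I15Rik, Gm47381 and Gm36738 against MSCV were each lost in 6 other settings, among them leaving out any of MSCV lines 2 to 4 or SFPQ-ABL1 line 4, and also SFPQ-ABL1 line 1 for D730003I15Rik and Gm47381 and line 3 for Gm36738. The adjusted p values then ran up to 0.0885, 0.089 and 0.0749 for D730003I15Rik, Gm47381 and Gm36738.

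Between the fusions, the genes already named for BCR-ABL1 led the list. Besides F730016J06Rik and Gm35037, A630001O12Rik was higher in SFPQ-ABL1, 4.27-fold, at 5.0 to 9.29 CPM against 1.23 to 2.38 CPM (adjusted p = 0.000138). CAAA01141682.2 was 3.10-fold higher (adjusted p = 0.00321), at 5.04 to 12 CPM against 1.78 to 4.27 CPM. Zfp983, the zinc finger gene 150 bases away on the opposite strand, stood at 72.1 CPM in SFPQ-ABL1, 19 CPM in BCR-ABL1 and 29.3 CPM in MSCV. Bc1 was 2.03-fold lower in SFPQ-ABL1 (adjusted p = 0.00802), at 13.4 to 18.8 CPM against 18.9 to 53.7 CPM.

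**Figure D4:**
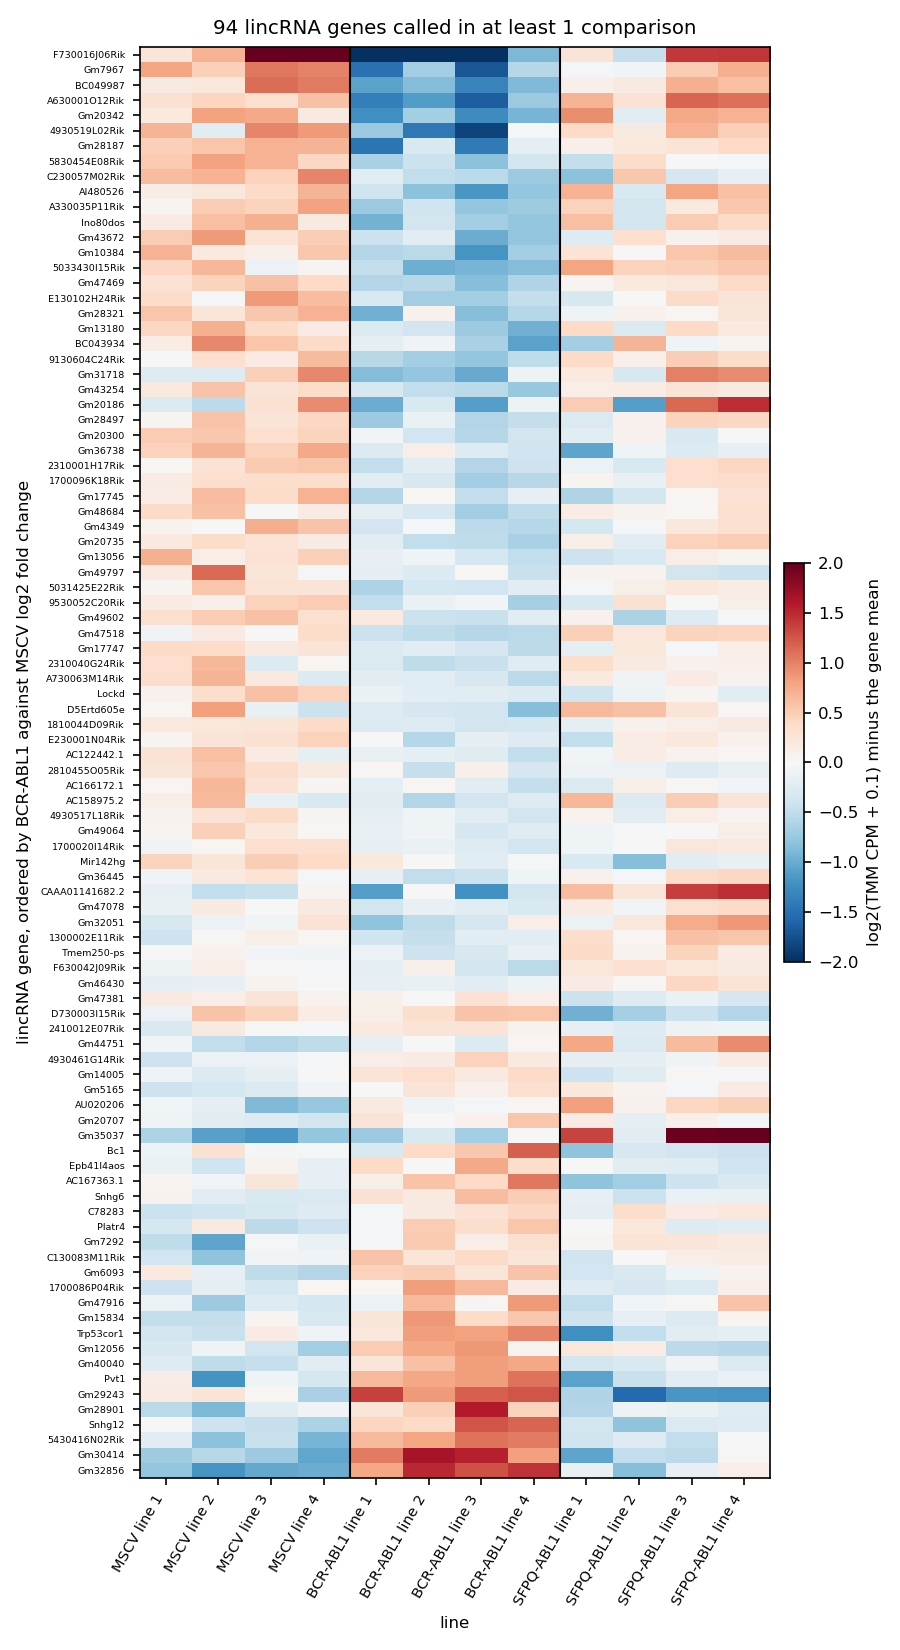
Each row is 1 of the 94 lincRNA genes called in at least 1 comparison, ordered by log2 fold change of BCR-ABL1 against MSCV, and each column is a line. The genes were chosen for a difference between groups, so the likeness of columns of a group is no result. Colour is log2(CPM + 0.1) minus the gene's mean over the 12 lines, cut at -2 and 2. The BCR-ABL1 columns are blue at the top and red at the bottom, and Gm35037 stands out in red in SFPQ-ABL1 lines 1, 3 and 4.

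MicroRNA hosts among the expressed lincRNAs were of low to middle level. A primary transcript is cut in the nucleus to free its hairpins, so the level of a host is that of the unprocessed or spliced transcript, and mature microRNAs were not measured. By position, 8 of the 271 genes held 17 RefSeq hairpins with 31 mature microRNAs and 26 different seeds (bases 2 to 8, which pair with the target). The microRNAs below are those of Mir142hg and E130102H24Rik, which were called in a comparison, and those that share a seed, from Mir17hg and from 6720427I07Rik, with the seed in capitals and the sequence from RefSeq (GRCm38.p6).
mmu-miR-142a-5p: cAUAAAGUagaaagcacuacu
mmu-miR-142a-3p: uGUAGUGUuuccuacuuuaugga
mmu-miR-101a-3p: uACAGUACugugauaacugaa
mmu-miR-101a-5p: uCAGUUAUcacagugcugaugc
mmu-miR-17-5p: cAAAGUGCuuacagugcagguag
mmu-miR-20a-5p: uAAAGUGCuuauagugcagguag
mmu-miR-19a-3p: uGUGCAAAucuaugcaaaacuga
mmu-miR-19b-3p: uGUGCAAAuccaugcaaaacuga
mmu-let-7a-5p: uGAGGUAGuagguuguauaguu
mmu-let-7d-5p: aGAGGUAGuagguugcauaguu
mmu-let-7f-5p: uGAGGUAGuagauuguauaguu
mmu-let-7a-1-3p: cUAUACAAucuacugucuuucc
mmu-let-7f-1-3p: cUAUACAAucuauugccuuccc

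Mir142hg, the host of the blood-specific miR-142, fell with SFPQ-ABL1. It stood at 14.8, 12.8, 15.3 and 14.3 CPM in MSCV, at 12.6, 10.9, 9.27 and 10.6 CPM in BCR-ABL1 and at 8.80, 6.0, 9.22 and 9.78 CPM in SFPQ-ABL1. The fall of 1.69-fold in SFPQ-ABL1 had no overlap (adjusted p = 0.0315) and was lost in 7 other settings with adjusted p up to 0.0891, among them leaving out any of MSCV lines 2 to 4 or line 1, 3 or 4 of SFPQ-ABL1. Tspoap1, 3271 bases away on the same strand, fell 1.68-fold there (adjusted p = 0.0432) and rose 1.91-fold with BCR-ABL1 (adjusted p = 0.00109), where Mir142hg was not called (log2 -0.40, adjusted p = 0.0604). In that comparison Mir142hg was called lower by DESeq2 (adjusted p = 0.0406), with 8 libraries (adjusted p = 0.0335), and without BCR-ABL1 line 1 (0.0399) or SFPQ-ABL1 line 2 (0.019). The replicate block also called it lower there (adjusted p = 0.0481).

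Mir17hg, the host of the growth-promoting miR-17 to miR-92 cluster, stood at 7.61, 5.15, 4.27 and 3.93 CPM in MSCV, at 8.10, 8.42, 7.01 and 6.63 CPM in BCR-ABL1 and at 15.6, 7.14, 9.55 and 8.22 CPM in SFPQ-ABL1. It was not called (adjusted p = 0.131 and 0.0755 against MSCV), and without MSCV line 1 both were called (adjusted p = 0.0318 and 0.0358). With SFPQ-ABL1 against MSCV it was also called higher with the replicate block (log2 0.94, adjusted p = 0.0187), by DESeq2 (adjusted p = 0.00677), without the low-count filter (0.0442) and without SFPQ-ABL1 line 2 (0.0461). The block called it higher with BCR-ABL1 against MSCV too (log2 0.58, adjusted p = 0.0252). The shared seeds of miR-17 with miR-20a and of miR-19a with miR-19b come from this 1 transcript. 6720427I07Rik, with the let-7 hairpins, stood at 2.60 ± 0.194, 2.53 ± 0.713 and 2.70 ± 0.231 CPM (SD, n = 4) in MSCV, BCR-ABL1 and SFPQ-ABL1. E130102H24Rik, the host of miR-101a, stood at 2.99, 2.26, 4.23 and 3.59 CPM in MSCV, at 1.85, 1.38, 1.4 and 1.63 CPM in BCR-ABL1 and at 1.82, 2.3, 3.03 and 2.78 CPM in SFPQ-ABL1. It fell 2.09-fold with BCR-ABL1 with no overlap (adjusted p = 0.00319), and was 1.59-fold higher in SFPQ-ABL1 than in BCR-ABL1 (adjusted p = 0.0441). The latter call was lost in 10 other settings, with adjusted p up to 0.129, among them leaving out MSCV line 1 or 4, any of BCR-ABL1 lines 2 to 4 or any of SFPQ-ABL1 lines 2 to 4. 4833445I07Rik, with the hairpins of miR-191 and miR-425, reached the level in MSCV and SFPQ-ABL1 only, at 1.96 ± 0.281 and 2.41 ± 0.322 CPM (SD, n = 4). Mirt1 was placed among the hosts by its name, but it is a myocardial infarction transcript and no RefSeq hairpin lies in it. It stood at 4.59 ± 1.25, 7.59 ± 4.45 and 3.56 ± 1.82 CPM (SD, n = 4). Mir155hg, the host of the inflammation-linked miR-155 and below the level of 1 CPM, had a mean of 0.186 CPM in MSCV, 1.0 CPM in BCR-ABL1 and 0.196 CPM in SFPQ-ABL1.

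Malat1 and the Norad gene were not called by edgeR with all lines and group as the only term. Malat1, a main RNA of nuclear speckles, where splicing factors are stored, stood at 243, 191, 368 and 299 CPM in MSCV, at 265, 457, 333 and 713 CPM in BCR-ABL1 and at 260, 237, 351 and 297 CPM in SFPQ-ABL1. The groups overlapped, with BCR-ABL1 line 4 far above the rest (log2 0.68 ± 0.27 SE against MSCV, adjusted p = 0.0740). Without BCR-ABL1 line 1 that adjusted p was 0.0253, and without MSCV line 3 it was 0.0467, while DESeq2 called Malat1 higher with all lines (adjusted p = 0.0338). The replicate block also called Malat1 higher there (log2 0.66, adjusted p = 0.0453). Without BCR-ABL1 line 1, Malat1 was also called between the fusions (adjusted p = 0.0395). 2900097C17Rik, the mouse Norad gene, whose RNA binds Pumilio proteins in the cytoplasm, stood at 147 ± 25.1, 138 ± 6.37 and 163 ± 10.7 CPM (SD, n = 4) in MSCV, BCR-ABL1 and SFPQ-ABL1. At the X inactivation centre, Jpx and Ftx, which are known activators of Xist, stood at 4.97 to 5.86 CPM and 7.19 to 8.84 CPM by group mean. With all lines, none of the 3 tested genes of that centre was called in any comparison by edgeR, and none had an unadjusted p under 0.05 or was called by DESeq2 or limma-voom. Without BCR-ABL1 line 4, Ftx was called higher in SFPQ-ABL1 than in BCR-ABL1 (log2 0.43, adjusted p = 0.0404). Xist itself, below the level, had group means of 0.141 to 0.176 CPM. Lncenc1, named for embryonic stem cells, stood at 73.9 ± 3.83, 76.5 ± 20.6 and 88.3 ± 34.3 CPM (SD, n = 4), and Bvht, a cardiac lincRNA, at 2.19 ± 0.656, 2.89 ± 0.555 and 1.98 ± 0.964 CPM.

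Genes that met the level in a single group are described without a test, since that group was the reason for their choice. Among the 13 of BCR-ABL1, Gm33699 stood at 2.25, 11.6, 2.99 and 11.3 CPM there, at 0.189 to 0.982 CPM in MSCV and at 0.0268 to 0.268 CPM in SFPQ-ABL1. Gm35507 stood at 1.01, 4.81, 2.87 and 8.13 CPM in BCR-ABL1 and below 1 CPM in every other line. The 4 BCR-ABL1 lines differed among themselves widely in both genes. 4930568A12Rik and Gm32552 had means of 3.59 ± 1.84 and 2.42 ± 1.21 CPM (SD, n = 4) in BCR-ABL1. Among the 8 of SFPQ-ABL1, 1700016F12Rik stood at 5.87, 1.31, 5.49 and 5.12 CPM there, against 0.568 to 0.928 CPM in MSCV and 0.973 to 2.31 CPM in BCR-ABL1. Anxa3, the annexin gene 3539 bases away, had its high level in BCR-ABL1 instead, at 6.26 ± 3.71 CPM against 1.18 ± 0.447 CPM in SFPQ-ABL1 (SD, n = 4). Gm49240 stood at 1.93 to 3.71 CPM in SFPQ-ABL1, and AC113491.1 at 13.7 CPM in line 4 and 1.86 to 3.2 CPM in the others, with 0.0538 to 8.93 CPM in MSCV. Gm44226, with 1.94 ± 0.916 CPM (SD, n = 4) in SFPQ-ABL1, shares 54.3% of its exon bases with 4833403J16Rik.

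Among the 12 of MSCV, 4933406I18Rik stood at 1.90 ± 0.304 CPM in MSCV, 0.321 ± 0.123 CPM in BCR-ABL1 and 1.12 ± 0.381 CPM in SFPQ-ABL1 (SD, n = 4). It starts back to back with Pde3b, a phosphodiesterase gene 120 bases away, which fell 2.14-fold with BCR-ABL1, from 274 ± 25 to 128 ± 16.2 CPM (SD, n = 4). Gm26660 had 2.13 ± 0.316, 0.682 ± 0.145 and 1.16 ± 0.439 CPM, BC028471 had 1.96 ± 0.891, 0.724 ± 0.106 and 0.923 ± 0.399 CPM, and Gm9873 had 1.34 ± 0.191, 0.415 ± 0.0915 and 0.485 ± 0.234 CPM in the same order (SD, n = 4).

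Near neighbours moved with their lincRNA in sign in 18 of 25 cases called with BCR-ABL1 against MSCV, and distant ones in 17 of 33. Of the 202, 78 had a tested nearest protein-coding gene that overlapped them or lay within 5 kb. With BCR-ABL1 against MSCV, 31 of these neighbours (39.7%) were called, against 36.2% in pairs of protein-coding genes at that distance. Of the 25 lincRNAs called among the 78, 18 (72.0%) had a neighbour with a fold change of the same sign, against 61.1% for coding pairs. Where the neighbour was over 5 kb away, 17 of 33 (51.5%) had the same sign, against 59.6% for coding pairs. In 8 near pairs both genes were called, 7 with the same sign. They include BC049987 and Treh, 5830454E08Rik and Rpl14, Lockd and Cdkn1b, Gm36738 and Rac2, and 1700086P04Rik and Rnf19b, both of which rose. The call of 1700086P04Rik was lost when line 1 or 3 of MSCV, or line 2 or 3 of BCR-ABL1, was left out, and without the low-count filter, with adjusted p up to 0.0794. Snhg12 and Trnau1ap were the pair with opposite signs. Between the fusions 14 of 21 near pairs (66.7%) shared the sign, against 62.2% of coding pairs. Over 5 kb apart it was 17 of 30 (56.7%), against 60.8%. Both genes were called in 8 near pairs between the fusions, 5 with the same sign and 3 with opposite signs. For SFPQ-ABL1 against MSCV near and distant pairs did not differ, with 5 of 5 near and 4 of 4 distant ones of the same sign. These are counts without a test of the difference, and pairs that overlap may share reads.

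**Figure D5:**
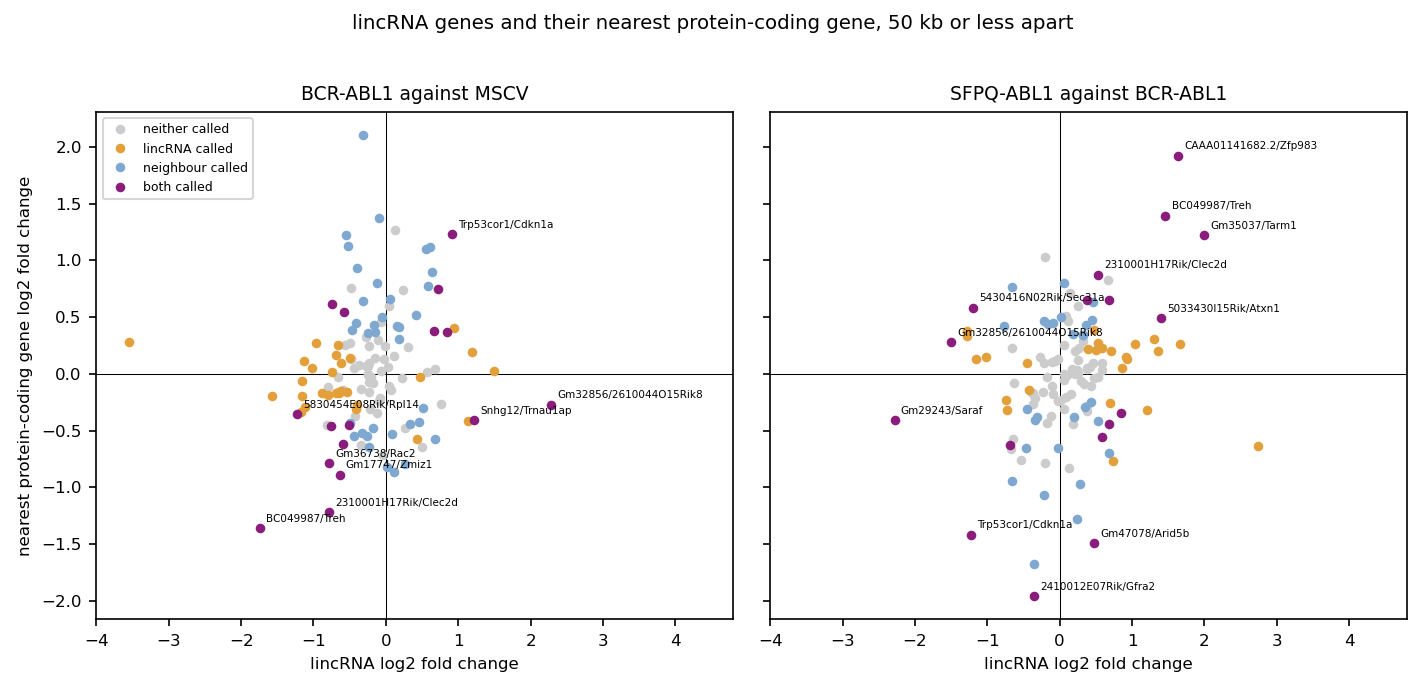
Log2 fold change of each lincRNA gene (x) and of its nearest protein-coding gene (y), for pairs 50 kb or less apart, in the comparison of BCR-ABL1 with MSCV (left) and of SFPQ-ABL1 with BCR-ABL1 (right). Colours show which of the pair was called, and pairs with both called and a large change are named. Trp53cor1 and Cdkn1a lie in the upper right on the left and in the lower left on the right, and BC049987 and Treh do the reverse.

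The second deposited table holds counts per exon and gave the same directions. Summed over the exon entries of an expressed lincRNA, the counts there came to a median of 9.99% of its gene count. The range was 2.34 to 470%, with 4 genes above 100%. Exon entries of a gene can repeat or overlap, as those of Abl1 do, so reads can enter the sum more than once. The sources used here do not say which reads that table holds. The summed exon counts had the same sign as the gene count in 73 of the 74 lincRNAs called with BCR-ABL1 against MSCV, the exception being A730063M14Rik. The sign held in 10 of 10 with SFPQ-ABL1 against MSCV, and in 61 of 62 between the fusions, the exception being 2410012E07Rik. Both tables come from the same libraries.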

How the data were processed

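Per the submitters' processing notes, Subread and its featureCounts program were used with mm10. The sources used here do not give versions, annotation, strand setting or handling of multimapping reads. The deposited values are raw read counts for Ensembl genes, with a second table for exons, and everything else was computed from them. The exon table was used only to check directions and labels, a check added after seeing the data. Biotypes, symbols and coordinates came from GENCODE M21, which held 55230 of the 55471 identifiers. CPM for the choice of genes are the count over the library total.

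The gene table was analysed in R 4.3.3 with edgeR 4.0.16 (filterByExpr, TMM, glmQLFit and glmQLFTest on 12 libraries, group as the only term). DESeq2 1.42.0 and limma 3.58.1 were alternatives, with other scalings, no low-count filter, 8 libraries, a replicate block and each library left out. On simulated counts of 17061 genes for BCR-ABL1 against MSCV, the test recovered 78% of 2-fold and 100% of 4-fold changes with 11 false calls. Only a small part of the genes was changed there, all above 1 CPM, while 5522 genes were called in the data. These values therefore need not hold for the data. The 18 pairs of replicates differed by more than sampling noise (chi-square per degree of freedom 33.1 to 182). Deviations of same-numbered lines correlated at 0.165 to 0.533 in all 4 pairs of MSCV and SFPQ-ABL1, so for this comparison the numbers were taken as pairs and the fit with the block is given where it changed a call or count. In pairs with BCR-ABL1 they did not all exceed 0.1. The labels name biologically independent lines, and the SD and SE given here cover the spread between these lines. Promoter windows matched 132 of the 271 genes by symbol. RefSeq starts, used for motifs and first bases, can differ from GENCODE starts, used for gene coordinates. For F730016J06Rik the RefSeq start lies 132 bases before the GENCODE start, and for 4930519L02Rik 12954 bases after it.

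The genes, role lists and tests were chosen with earlier results of these data known. Named genes are the 10 highest per kilobase, the 8 largest rises and falls per comparison among called genes without overlap, the 4 with the highest fold among genes of a single group, and all members of the role lists. The genes within 20% of the level are given by count with up to 3 names. 6720427I07Rik, E130102H24Rik, 4833445I07Rik, Gm44751, 1700086P04Rik and the neighbours were named outside this rule, after their values were seen.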

Additional observations from a re-analysis of the deposited data

Results flagged for a closer look

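In 13 of 186 groups of 4 lines examined for the named genes, 1 line stood apart from the other 3 by Dixon's criterion, which chance does in about 1 in 20 groups. BCR-ABL1 line 3 accounted for 4 of them, SFPQ-ABL1 line 2 for 3, BCR-ABL1 line 4 and SFPQ-ABL1 line 4 for 2 each.

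1700016F12Rik had 1.31 CPM in SFPQ-ABL1 line 2, below the 5.12 to 5.87 CPM of the other lines. 4930461G14Rik had 85.5 CPM in BCR-ABL1 line 3, above the 68.3 to 70.6 CPM of the other lines. 4930568A12Rik had 1.44 CPM in SFPQ-ABL1 line 4, above the 0.474 to 0.536 CPM of the other lines. 4933406I18Rik had 0.137 CPM in BCR-ABL1 line 3, below the 0.372 to 0.391 CPM of the other lines. AC113491.1 had 13.7 CPM in SFPQ-ABL1 line 4, above the 1.86 to 3.2 CPM of the other lines. Bc1 had 28.8 CPM in MSCV line 2, above the 21.7 to 22.8 CPM of the other lines. Bvht had 3.42 CPM in SFPQ-ABL1 line 2, above the 1.41 to 1.63 CPM of the other lines. F730016J06Rik had 52.8 CPM in BCR-ABL1 line 4, above the 14.7 to 20.5 CPM of the other lines. Gm20005 had 31.0 CPM in BCR-ABL1 line 3, above the 27.0 to 27.2 CPM of the other lines. Gm26660 had 0.509 CPM in SFPQ-ABL1 line 1, below the 1.34 to 1.42 CPM of the other lines. Gm28901 had 25.7 CPM in BCR-ABL1 line 3, above the 10.1 to 11.9 CPM of the other lines. Gm9873 had 0.279 CPM in BCR-ABL1 line 4, below the 0.445 to 0.471 CPM of the other lines. Snhg6 had 19.1 CPM in SFPQ-ABL1 line 2, below the 23.0 to 23.5 CPM of the other lines.

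Of these genes, 4930461G14Rik was called higher with BCR-ABL1 against MSCV (log2 0.40, adjusted p = 0.0159), and without BCR-ABL1 line 3 the adjusted p was 0.0583. The calls of F730016J06Rik, Gm28901 and Snhg6 in that comparison were kept whichever 1 library was left out.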

How the results depend on the processing

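With BCR-ABL1 against MSCV, no setting moved a count past 1.5-fold. Leaving out each library gave 4474 to 5645 genes and 62 to 80 lincRNAs called, with 20 to 31 higher and 41 to 52 lower. Between the fusions the same gave 3161 to 5026 genes and 44 to 73 lincRNAs, with 26 to 47 higher (26 without BCR-ABL1 line 3, 27 without SFPQ-ABL1 line 3). The counts with SFPQ-ABL1 against MSCV moved most. Genes called were 1131 with DESeq2, 110 with 8 libraries and 33 to 467 when a library was left out, and lincRNAs called were 30, 2 and 0 to 18. Higher were 13, 1 and 0 to 8 of them, and 7 without the low-count filter, and lower were 17, 1 and 0 to 10. The causes were not tested. Without normalization factors, 64.8% of the genes called with SFPQ-ABL1 against MSCV were higher (45.5% with TMM) and 61.9% between the fusions (50.7% with TMM), and the median of all genes moved by less than 0.1 on the log2 scale. No lincRNA called both in the fit used above and under another setting had opposite signs in them. Lost calls were not part of that count. Among genes named by the rule, no call reversed sign under any setting, whether kept or lost. Of 65 calls of genes named by the rule, 8 were lost with 8 libraries, 4 without the low-count filter, 2 without normalization factors, 1 with RLE, 0 with DESeq2 or limma-voom and 0 to 9 when a library was left out. Named outside it, E130102H24Rik between the fusions and Gm44751 in both its comparisons lost their calls with limma-voom.

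Same-numbered lines were taken as pairs only for SFPQ-ABL1 against MSCV. Over all groups their deviations correlated at -0.003 to 0.533, and 9 of 12 libraries correlated best with their own number. With the replicate block, SFPQ-ABL1 against MSCV gave 726 genes and 18 lincRNAs (6 higher, 12 lower), and 33 lincRNAs were lower in SFPQ-ABL1 than in BCR-ABL1. Of the 65 calls the block lost 0, and it added that of Mir17hg with SFPQ-ABL1 against MSCV and 9 in the other comparisons.

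At 0.5 CPM 360 genes would enter, at 2 CPM 199, and on TMM-scaled CPM 272. Leaving out a library gave 271 to 282. A level of 1 CPM rested on 59.4 to 80.6 counts per library, which limits the precision of the genes near it.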
